A study of Mus musculus with 9 samples.

Results

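Genes that mark the CXCL12-abundant, adipogenic stroma of bone marrow were followed in capillaries cut from the ossification front (OF) of mouse femurs. The 10 genes (Cxcl12, Lepr, Adipoq, Kitl, Lpl, Cebpa, Pparg, Foxc1, Ebf3 and Il7) were taken by name from a fixed list. That list was chosen with earlier results of these data known. All 10 were found among the 39179 genes that were counted. The question was how the levels of these genes differed between the OF of juvenile and adult mice.

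CXCL12-abundant reticular cells are perivascular stromal cells of the marrow that carry the leptin receptor and supply factors on which blood stem cells and B cell progenitors depend. Many of them express genes of the adipocyte lineage without storing fat. The transcription factors FOXC1 and EBF3 are known to maintain them as niche cells, and EBF3 is known to restrain bone formation by them. Leptin receptor positive cells are also known as a source of osteoblasts and marrow adipocytes in adult bone.

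The libraries came from Tg(TIE2GFP)287Sato/J mice of C57BL/6 origin, in which a Tie2-driven GFP makes the endothelium visible, and the labels name no other allele or treatment. Single capillaries and the cells around them were cut by laser microdissection from unfixed, snap-frozen femurs of juvenile mice aged 4 weeks (n = 5 libraries) and adult mice aged 12 weeks (n = 4 libraries), so each library holds RNA of endothelial and neighbouring cells together. GFP chose the vessels, and the cells beside them were cut with no marker of their own. The juvenile libraries held 5706342, 7398483, 4856833, 5844430 and 5001866 counts, and the adult libraries held 8077362, 5821596, 7775714 and 7206651 counts. Levels are given as CPM, counts divided by the scaled library total and brought to a common total, with libraries in the order of their replicate numbers. At these depths 3 counts, taken as the floor of detection, equal 0.432 to 0.638 CPM in juvenile and 0.347 to 0.501 CPM in adult libraries, and this floor covers counting error only.

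The labels used here give no sex per library. Xist, the RNA of the inactive X chromosome, had 3696, 3650, 2965, 11 and 1 counts in the juvenile libraries and 5603, 6237, 6598 and 5257 counts in the adult libraries. The Y-linked gene Ddx3y had 524 and 439 counts in juvenile replicates 4 and 5 and at most 1 count in each of the other 7 libraries. The ages therefore differed in sex-linked counts, with the low-Xist libraries all juvenile, and calls of Cxcl12 and Lepr are given for the 7 Xist-rich libraries as well.

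Of the 10 genes, Cxcl12 was higher and Lepr was lower in the adult OF, and the other genes did not pass the test between the ages. Of the 10 genes, 9 had enough counts to be tested, and 2 of them were called at an adjusted p under 0.05 with edgeR, 1 in each direction. Among all 13418 genes tested, 520 were called (3.88%), 253 higher (1.89%) and 267 lower (1.99%) in adult libraries. With one gene per direction, these 2 calls describe 2 genes and not the group. The count of all called genes fell to 332, 293, 275 and 262 without juvenile replicate 2, 3, 4 or 5, while Cxcl12 and Lepr were called without any one of the 9 libraries. In the 7 Xist-rich libraries edgeR called 73 of 13876 genes (0.526%), and of the 10 genes only Lepr. Of the 9 tested genes, 7 had a positive and 2 a negative log2 fold change of adult over juvenile, with a median of 1.16 against 0.0066 over all genes tested, and Il7 was not tested. This tally includes Pparg, Cebpa and Foxc1, whose signs turned under alternatives. The genes are described below by their roles.

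**Figure D1:**
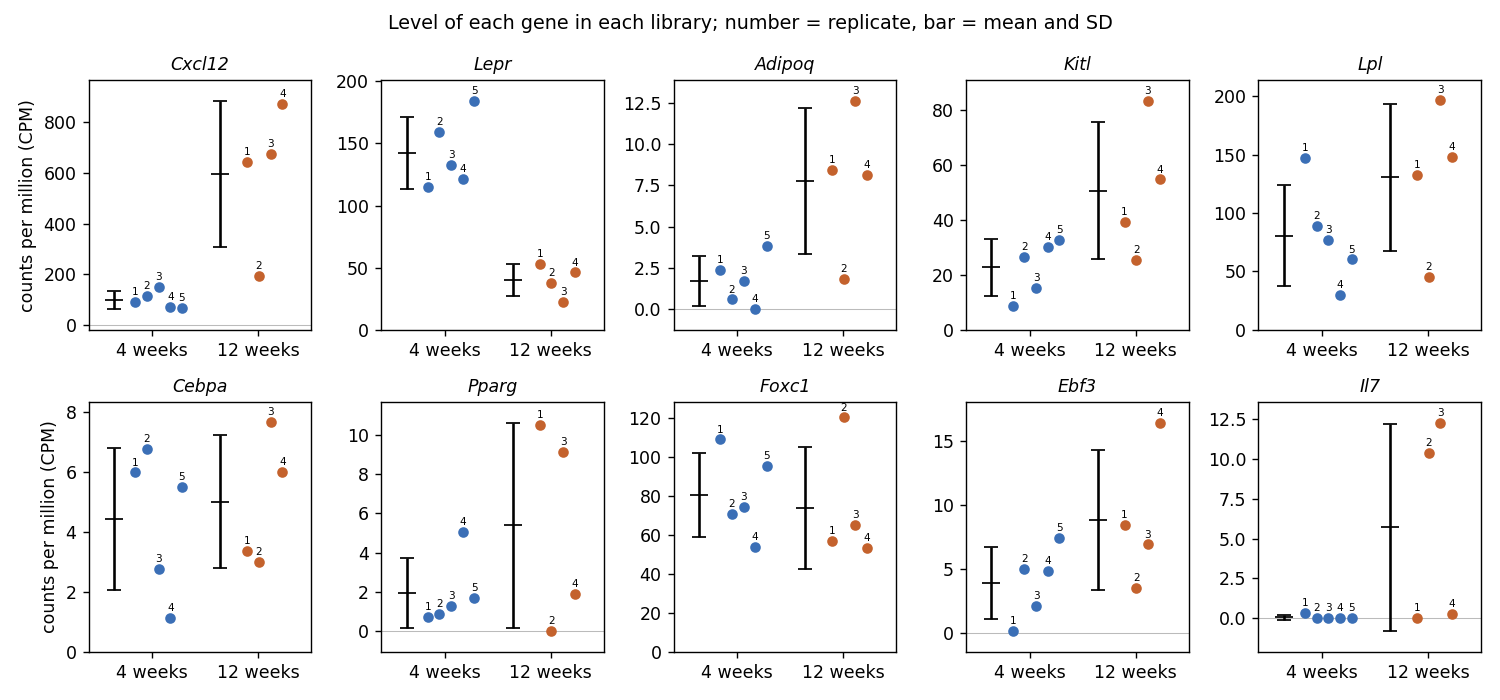
Level of each of the 10 genes in CPM (vertical axis, linear, a separate scale per gene) in each library at 4 weeks (n = 5, blue) and 12 weeks (n = 4, orange); numbers beside the points are replicate numbers, and the bars give the mean and SD. The ages do not overlap for Cxcl12, higher at 12 weeks, and for Lepr, higher at 4 weeks, and they overlap for the other 8 genes.

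Cxcl12 encodes the chemokine that holds blood stem cells and B cell progenitors in the marrow through its receptor CXCR4. In GRCm38 the gene lies on the plus strand at chr6:117168535-117181367. Its level in the juvenile libraries was 90.3, 114, 151, 71.1 and 67.2 CPM, and in the adult libraries it was 645, 192, 676 and 870.4 CPM. Every adult library lay above every juvenile library, and adult replicate 2 lay far below the other 3 adult libraries and nearest to the juvenile range. The means were 98.8 ± 34.7 CPM (SD, n = 5) and 596 ± 287 CPM (SD, n = 4). The log2 fold change of adult over juvenile was 2.59 (SE 0.37, edgeR adjusted p = 0.00283), a 6.03-fold higher level. The two-sided exact permutation test of mean log2 CPM gave p = 0.00794, the smallest value that 5 against 4 libraries allow. Among all genes tested, 548 (4.08%) had every adult library above every juvenile library, and 680 (5.07%) had every juvenile library above. In the 7 Xist-rich libraries the log2 fold change of Cxcl12 was 2.33 (SE 0.45) and its edgeR adjusted p was 0.0632, against a range of 4.55e-10 to 0.0632 over the alternatives other than leaving out single replicates. In such bulk pieces, fewer cells of a type and less RNA per cell cannot be told apart, for this gene and for those that follow.

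Kitl encodes stem cell factor, the ligand of the receptor KIT on blood stem and progenitor cells, and lies on the plus strand at chr10:100015630-100100416. Its level was 8.70, 26.5, 15.1, 30.2 and 32.9 CPM in the juvenile and 39.4, 25.4, 83.4 and 54.8 CPM in the adult libraries. Adult replicates 1, 3 and 4 lay above all juvenile libraries, whereas adult replicate 2 lay within the juvenile range, so the ages overlapped. The log2 fold change was 1.16 (SE 0.43, edgeR adjusted p = 0.173), with p = 0.0193 before adjustment, and the exact permutation test gave p = 0.0714.

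Il7 encodes interleukin 7, a growth factor of early B cells, and lies on the minus strand at chr3:7569994-7613760. It had 2, 0, 0, 0 and 0 counts in the juvenile libraries and 0, 62, 99 and 2 counts in the adult libraries. Adult replicates 2 and 3 thus carried nearly all Il7 counts, at 10.4 and 12.2 CPM, and the other 7 libraries were below the floor of 3 counts. The gene was too rarely counted to pass the filter on low counts and was not tested. With no filter, the edgeR log2 fold change was 5.95 (adjusted p = 0.108), in a fit that called 2 of the 10 genes and 2.27% of all genes. DESeq2 called Il7 with a log2 fold change of 6.24 (adjusted p = 0.0221), so that 3 of the 10 genes were called, in a fit that called 9.61% of the genes it tested. The call of Il7 therefore differed between the tools, and it rests on 2 of the 4 adult libraries.

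Lepr encodes the receptor of the fat hormone leptin, the surface marker by which this stroma is commonly sorted, and lies on the plus strand at chr4:101717404-101815352. Its level was 115, 159, 133, 121 and 185 CPM in the juvenile libraries and 52.8, 37.6, 22.6 and 46.1 CPM in the adult libraries. Every juvenile library lay above every adult library, and adult replicate 2 lay within the range of the other adult libraries for this gene. The means were 142 ± 29.0 CPM (SD, n = 5) and 39.8 ± 13.0 CPM (SD, n = 4). The log2 fold change was −1.84 (SE 0.27, edgeR adjusted p = 0.00285), a level 3.58-fold higher in juvenile mice. The exact permutation test again gave its smallest value, p = 0.00794. Lepr was called under every alternative that was run, with adjusted p between 9.43e-09 and 0.0425. Counts were made per gene, so the long signalling form and the short forms of the receptor were not told apart.

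Cxcl12 and Lepr were also set against each other within each library, per kilobase of exon. The ratio of Cxcl12 to Lepr was 0.677, 0.619, 0.981, 0.507 and 0.314 in the juvenile libraries and 10.5, 4.41, 25.7 and 16.3 in the adult libraries. All juvenile ratios were below all adult ratios, and adult replicate 2 had the lowest adult ratio. Per kilobase of the longest transcript the ratios were 0.774, 0.707, 1.12, 0.579 and 0.358 in juvenile and 12.0, 5.04, 29.4 and 18.6 in adult libraries, again with no overlap. This ratio was chosen after both genes had been seen to differ, so it is a description and was not tested. Per kilobase of exon Cxcl12 was the highest of the 10 genes in all 4 adult libraries, whereas Lepr was the highest in 4 of the 5 juvenile libraries and Foxc1 in juvenile replicate 1. Per kilobase of the longest transcript Cxcl12 was again the highest in all adult libraries, while the highest in juvenile replicate 1 was Lpl, in juvenile replicate 3 Cxcl12 and in the other juvenile libraries Lepr.

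The transcription factors did not pass the test. Foxc1, a forkhead factor needed for the CXCL12-abundant state, lies at chr13:31806633-31812476 and had 109, 70.6, 74.5, 53.9 and 95.2 CPM in juvenile and 56.6, 120.2, 64.8 and 53.0 CPM in adult libraries. The ages overlapped over most of their range, and adult replicate 2, the lowest adult library for Cxcl12, was the highest of all libraries for Foxc1. The log2 fold change was −0.13 (SE 0.29, edgeR adjusted p = 0.890). Ebf3, an early B cell factor family member that keeps the niche free of bone, lies on the minus strand at chr7:137193673-137314445. It had 0.181, 5.04, 2.13, 4.88 and 7.42 CPM in juvenile and 8.44, 3.51, 6.93 and 16.4 CPM in adult libraries, which overlapped (log2 fold change 1.16, SE 0.88, edgeR adjusted p = 0.579). Ebf3 was thus below the floor of 3 counts in juvenile replicate 1 and rested on at most 131 counts in any library.

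Cebpa and Pparg encode the factors that drive adipocyte differentiation, and both were counted at low levels. Cebpa, at chr7:35119293-35121928, ranged from 1.13 to 6.77 CPM in juvenile and from 3.01 to 7.67 CPM in adult libraries, with a log2 fold change of 0.18 (SE 0.77, edgeR adjusted p = 0.951). Pparg, at chr6:115360951-115490399, had 0.725, 0.864, 1.28, 5.07 and 1.70 CPM in juvenile and 10.5, 0, 9.16 and 1.88 CPM in adult libraries. Adult replicates 1 and 3 were high for Pparg, while adult replicate 2 had no count and adult replicate 4 lay within the juvenile range. The log2 fold change was 1.48 (SE 1.16, edgeR adjusted p = 0.593). With voom quality weights it was −0.023, so no direction is given for Pparg, nor for Cebpa and Foxc1, whose sign also turned under alternatives.

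The lipid genes varied widely within each age. Adipoq encodes the adipocyte hormone adiponectin, which is also made by marrow stroma, and lies at chr16:23146536-23158028. It had 2.36, 0.576, 1.70, 0 and 3.82 CPM in juvenile and 8.44, 1.84, 12.6 and 8.14 CPM in adult libraries. Adult replicates 1, 3 and 4 lay above all juvenile libraries, and adult replicate 2 lay within their range. The log2 fold change was 2.20 (SE 1.04, edgeR adjusted p = 0.302), and the exact permutation test gave p = 0.0476 with no adjustment for the 10 genes examined. Lpl encodes lipoprotein lipase, which releases fatty acids from blood lipoproteins at the capillary wall, and lies at chr8:68880491-68907448. It had 147, 89.0, 76.8, 29.8 and 60.2 CPM in juvenile and 132, 45.1, 197 and 148 CPM in adult libraries. The ages overlapped for Lpl, with juvenile replicate 1 about level with adult replicate 4 and adult replicate 2 below 4 of the 5 juvenile libraries (log2 fold change 0.70, SE 0.43, edgeR adjusted p = 0.467).

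**Figure D2:**
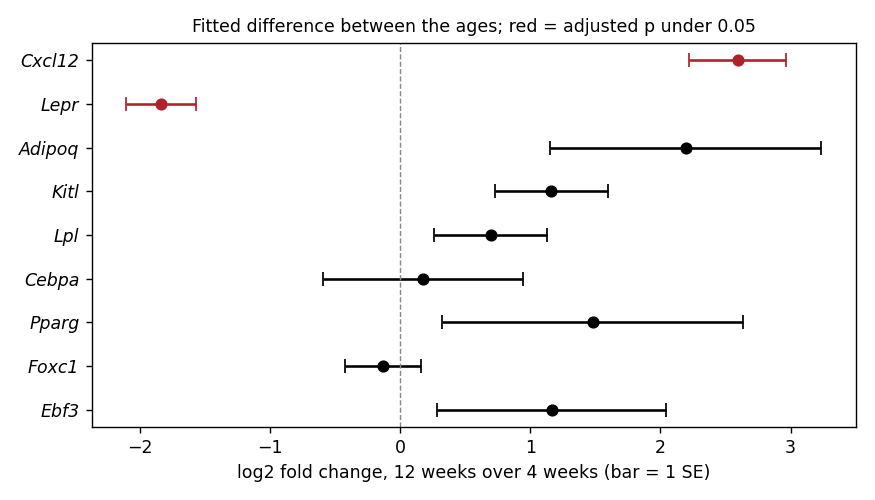
Log2 fold change of adult over juvenile libraries (horizontal axis) with 1 SE for the 9 genes that were tested, fitted with edgeR on 5 and 4 libraries; red marks an adjusted p under 0.05 and the dashed line marks no difference. Cxcl12 at 2.59 and Lepr at −1.84 lie on opposite sides of 0, and Il7 is absent because it was not tested.

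Levels of different genes were compared as CPM per kilobase of exon, the union of all annotated exons of a gene. In juvenile libraries the order was Lepr (20.2 ± 4.11, SD, n = 5), Foxc1 (13.8 ± 3.70), Cxcl12 (12.1 ± 4.24), Lpl (7.69 ± 4.13) and Kitl (3.84 ± 1.75). Cebpa, Adipoq, Pparg and Ebf3 followed between 1.68 and 0.426, and Il7 came last at 0.0128. Each gene in this juvenile order overlapped its next neighbour within 1 SD of each mean, except that Ebf3 and Il7 were apart. In adult libraries Cxcl12 (72.9 ± 35.1, SD, n = 4) stood apart from the next gene, Foxc1 (12.6 ± 5.38), which was followed by Lpl (12.5 ± 6.03), Kitl (8.58 ± 4.20), Lepr (5.64 ± 1.85) and Adipoq (5.62 ± 3.22). Cebpa, Pparg, Il7 and Ebf3 followed between 1.90 and 0.956, and from Foxc1 downward every adult neighbour overlapped the next. Lepr thus went from the first place to the fifth between the ages. Scaled by the longest transcript in place of all exons, Lpl moved to the second place at both ages, with 19.6 in juvenile and 31.7 in adult libraries.

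Antisense transcripts overlap exons of 3 of the genes, and the strand setting of the counting is not given in the sources used here. Gm45091 overlaps 51 bases of Cebpa and Gm45278 overlaps 355 bases of Ebf3, and neither was among the counted genes. Gm16685 overlaps 105 bases of Il7 and had 14 counts over all libraries. Reads from a gene and its antisense partner cannot be told apart without strand, so these 3 levels are uncertain to that extent.

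Adult replicate 2 was the lowest adult library for 7 of the 10 genes (Cxcl12, Adipoq, Kitl, Lpl, Cebpa, Pparg and Ebf3) and the highest for Foxc1. Its distance from the next adult library varied, and for Cebpa it was small (3.01 against 3.35 CPM in adult replicate 1). For Lepr and Il7 it lay within the range of the other adult libraries. Marker genes of other cell types set this library apart. The 9 neutrophil genes, led in counts by S100a8, summed to 4331, 93.0, 3488 and 3485 CPM in the adult libraries and to 5.98, 33.4, 9.36, 65.3 and 17.2 CPM in the juvenile libraries, so adult replicate 2 lay close above the juvenile range. The 7 chondrocyte genes, led in counts by Col2a1, summed to 1030.5, 4646, 596 and 726 CPM in adult and to 532, 459, 985, 363 and 364 CPM in juvenile libraries. Adult replicate 2 was thus low in neutrophil and high in cartilage genes, and the part of this in the levels of the 10 genes was not tested. Without this library the log2 fold change of Cxcl12 was 2.91 (edgeR adjusted p = 0.000137) and that of Kitl was 1.40 (adjusted p = 0.0897), so that no further gene of the 10 was called.

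**Figure D3:**
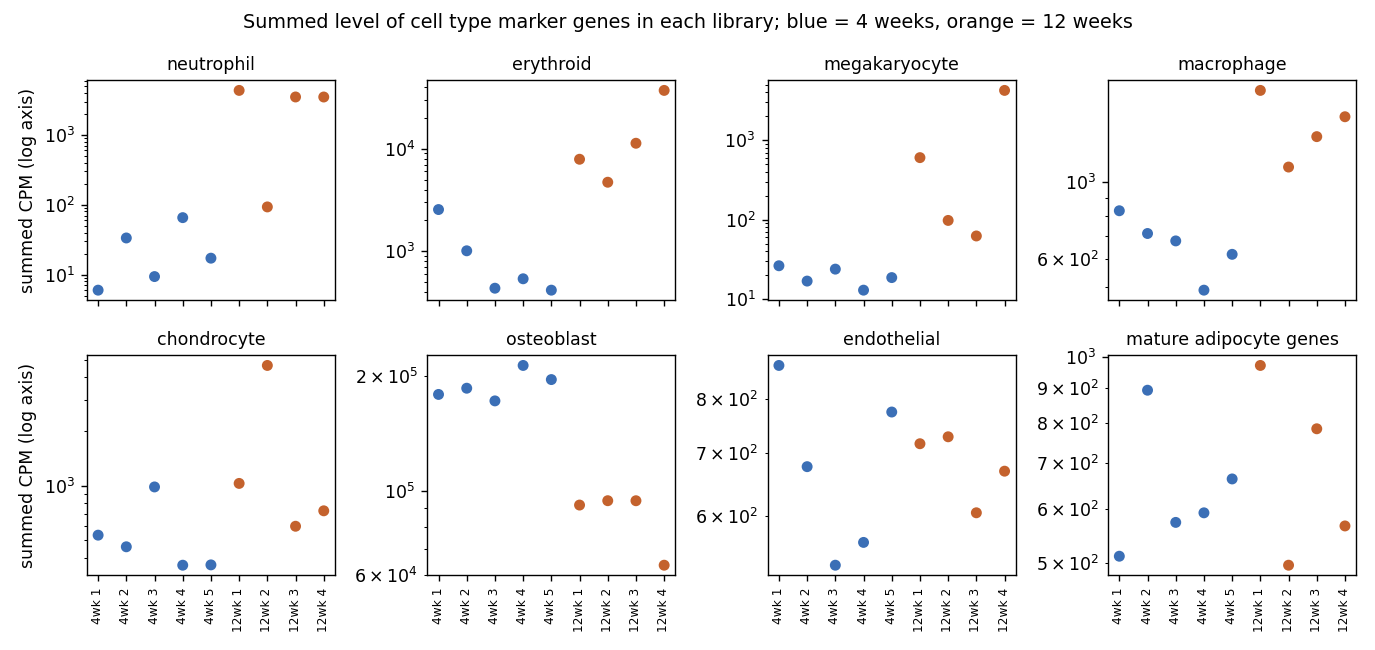
Summed CPM (vertical axis, log scale, a separate scale per panel) of the marker genes of 8 cell types in each library (horizontal axis), 4 weeks in blue (n = 5) and 12 weeks in orange (n = 4). Neutrophil, erythroid, megakaryocyte and macrophage sums are higher in adult and osteoblast sums in juvenile libraries, and adult replicate 2 is low in neutrophil and high in chondrocyte genes.

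Blood cell markers also differed between the ages. Of the 9 neutrophil genes tested, 8 were higher in adult libraries by edgeR, S100a8 among them with 5.17 ± 6.70 CPM in juvenile (SD, n = 5) and 959 ± 625 CPM in adult libraries (SD, n = 4). Ltf, Camp and S100a9 were the other neutrophil genes with the smallest adjusted p, at 0.0375, 1.72 and 7.86 CPM in juvenile and 43.4, 255 and 807 CPM in adult libraries. DESeq2 called 7 and voom 2 of the neutrophil genes, and edgeR called 5 in the 7 Xist-rich libraries. All 8 erythroid genes were higher in adult libraries by edgeR and DESeq2, against 6 called by voom and 0 in the Xist-rich libraries, led by Hbb-bs (log2 fold change 4.13, SE 0.69, edgeR adjusted p = 0.00718), and with Hba-a2 and Hba-a1 also among those named by rule. Globin genes are near copies of each other, so their single levels are uncertain. The erythroid sum was 2555, 1013, 438, 541 and 419 CPM in juvenile and 7896, 4716, 11305 and 36998 CPM in adult libraries, with no overlap. Of the 3 megakaryocyte genes tested, Pf4 was higher in adult libraries (log2 fold change 6.60, SE 1.01, edgeR adjusted p = 0.00406), whereas voom called 0 and DESeq2 2 genes of this list, and edgeR 0 in the Xist-rich libraries. The megakaryocyte sum was 26.3, 16.9, 23.8, 13.0 and 18.7 CPM in juvenile and 605, 97.9, 62.4 and 4247 CPM in adult libraries. Of the 9 macrophage genes, Csf1r and Vcam1 were higher in adult libraries by edgeR, 1 of the list was called in the Xist-rich libraries, and none was at 0. The macrophage sum was 827, 711, 677, 489 and 619.8 CPM in juvenile and 1836, 1105, 1352 and 1542 CPM in adult libraries. Of the 10 B lineage genes, 5 were tested and edgeR called 0, with 1 at an unadjusted p under 0.05, 1 called by DESeq2 and 0 by voom. Ebf1 had the most counts of these, and stroma expresses it too. The B lineage sum was 43.7, 77.2, 52.4, 39.4 and 37.1 CPM in juvenile and 99.6, 22.0, 227 and 69.0 CPM in adult libraries, which overlapped. Cxcl12 and the neutrophil, erythroid, megakaryocyte and macrophage sums were higher in every adult than in every juvenile library, and the part of marrow cells in the level of Cxcl12 was not tested. With haemoglobin, immunoglobulin, mitochondrial and blood marker genes left out of the totals, the log2 fold change of Cxcl12 was 2.60 and that of Lepr was −1.84, both called by edgeR.

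Several osteoblast markers were lower in adult libraries, as Lepr was. Of the 12 osteoblast genes, 6 were lower in adult libraries by edgeR, among them Col1a1 (log2 fold change −1.37), Col1a2 (−1.25), Dmp1 (−1.93) and Ibsp (−1.29), and 2 were higher, the osteocalcin genes Bglap2 and Bglap, which are near copies and uncertain one by one. DESeq2 and voom each called 9 osteoblast genes, and edgeR called 4 in the 7 Xist-rich libraries. The osteoblast sum, led by Col1a2, was 179277, 186179, 172378, 213800.0 and 196227 CPM in juvenile and 91549, 94004, 93984 and 63526 CPM in adult libraries. These sums did not overlap between the ages, as for Lepr, and the part of bone-forming cells in the level of Lepr was not tested. Of 7 osteoclast genes, Acp5 and Atp6v0d2 were higher in adult libraries, with sums of 12893 to 21148 CPM in juvenile and 16479 to 25579 CPM in adult libraries that overlapped, and 0 of these genes were called in the 7 Xist-rich libraries. Of the 6 chondrocyte genes tested, Col2a1 and Comp were higher in adult libraries (log2 fold changes 2.62 and 5.03) by edgeR and DESeq2, against 1 gene called by voom and 0 by edgeR in the Xist-rich libraries, with the highest level of both in adult replicate 2.

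Vessel and connective tissue markers were examined in the same way. The endothelium that was aimed at was present in each library, with summed levels of 868, 677, 532, 563 and 774 CPM in juvenile and 717, 729, 605 and 670.0 CPM in adult libraries over 11 genes, led in counts by Egfl7. Of the 10 endothelial genes tested, edgeR called 0, with 1 at an unadjusted p under 0.05, 1 called by DESeq2 and 0 by voom. Of the 7 smooth muscle and pericyte genes tested, edgeR called 0, with 3 at an unadjusted p under 0.05 and 1 called by each of DESeq2 and voom, and Cspg4 had the most counts. Of the 5 fibroblast and periosteum genes tested, Postn was higher in adult libraries (log2 fold change 2.87, SE 0.55, edgeR adjusted p = 0.0136), Dcn had the most counts and Clec3b was at 0 in all libraries. In that list 4 genes had an unadjusted p under 0.05, Postn and Ly6a with positive and Dcn and Lum with negative log2 fold changes (2.87, 1.42, −0.49 and −0.91), and the median was −0.27. Ly6a and Lum are named after their values were seen. The sum of the list was 2124, 2525, 2460.3, 2903 and 2946 CPM in juvenile and 2534, 1771, 2047 and 1592 CPM in adult libraries, which overlapped. DESeq2 called 3 and voom 2 of the list, and edgeR called 0 in the Xist-rich libraries. Skeletal muscle was nearly absent, with sums from 0 to 11.4 CPM over 6 genes, of which Ttn had the most counts and Myh4 had none, and the 1 gene tested was not called by edgeR, DESeq2 or voom, nor at an unadjusted p under 0.05.

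Other genes with roles near those of the 10 were then examined in 7 lists, each counted without the 10 genes themselves. The lists were chosen with earlier results of these data known, so their counts of called genes are descriptions and not tests of the lists. They are given beside all tested genes, of which 1.89% were called higher and 1.99% lower in adult libraries. The median log2 fold change over all tested genes was 0.0066. Among 12 further niche ligands, 8 were tested and 3 were higher in adult libraries, with 0 lower and a median of 0.43. These were Vcam1, the adhesion molecule that tethers blood progenitors (log2 fold change 2.97, SE 0.54, edgeR adjusted p = 0.0117), Gas6, a ligand of the TAM receptor kinases (1.15, SE 0.22, adjusted p = 0.0135), and Csf1, the macrophage growth factor (1.04, SE 0.22, adjusted p = 0.0187). Vcam1 had 15.8, 47.2, 8.73, 3.57 and 19.5 CPM in juvenile and 158, 93.9, 189 and 158 CPM in adult libraries. Vcam1 is also in the macrophage list, where it was counted above. All 3 of these ligands had every adult library above every juvenile library, as 4.08% of all tested genes had. Adult replicate 2 was the lowest adult library for Vcam1 and Gas6. In Bmp4, named after its values were seen, every juvenile library lay above every adult library, as in 5.07% of all tested genes. It was not called (log2 fold change −1.10, SE 0.44, edgeR adjusted p = 0.204). The 8 tested ligands had 4 positive and 4 negative log2 fold changes. In the 7 Xist-rich libraries 0 of these ligands were called by edgeR, in a fit that called 0.526% of all genes. Spp1 had the most counts of the list and was not called (log2 fold change −0.17, SE 0.31), and Flt3l had no matching symbol.

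Of 15 niche receptors, 12 were tested and 1 was called, with a median of 0.031. Csf1r, the receptor of CSF1 on macrophages and osteoclast precursors and the one with the most counts, was higher in adult libraries (log2 fold change 1.03, SE 0.16, edgeR adjusted p = 0.00406). Cxcr4, the receptor of CXCL12, was not called (log2 fold change 3.31, SE 0.88, edgeR adjusted p = 0.0566). It had 1.81, 1.44, 1.49, 0.563 and 1.48 CPM in juvenile and 16.9, 0.668, 20.7 and 16.3 CPM in adult libraries. Adult replicates 1, 3 and 4 were high for Cxcr4 and adult replicate 2 lay within the juvenile range. The same libraries were high and low in neutrophil genes, and Kitl and Adipoq also had adult replicate 2 alone within the juvenile range. The part of neutrophils in the level of Cxcr4 was not tested. Cxcr4 is named here because its ligand was called, a choice made after its values were seen. Named likewise after their values were seen are Tyro3 and Mertk, receptors of GAS6, and Il2rg, a subunit of the interleukin 7 receptor, the 3 receptors with every juvenile library above every adult library, as 5.07% of all tested genes had. Their log2 fold changes were −4.05 (SE 1.22, edgeR adjusted p = 0.0868), −1.07 (SE 0.41, adjusted p = 0.183) and −1.30 (SE 0.41, adjusted p = 0.101), so none was called. Axl, the other receptor of GAS6 in this list, overlapped between the ages (log2 fold change 0.77, SE 0.86, edgeR adjusted p = 0.735). DESeq2, which called 9.61% of all genes it tested, called 4 receptors of this list, and edgeR called 2 without adult replicate 2 or without adult replicate 3.

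Among 24 other genes of CXCL12-abundant cells, a list chosen with earlier results of these data known, 21 were tested, with a median of 0.58. In adult libraries 5 were higher and 0 were lower, against 1.89% and 1.99% of all genes. Besides Vcam1 and Gas6, already counted among the ligands, these were Apoe, the lipoprotein of lipid transport (log2 fold change 2.61, SE 0.38, edgeR adjusted p = 0.00303), Igfbp4, a binding protein of insulin-like growth factors (0.86, SE 0.19, adjusted p = 0.0267), and Hp, which encodes haptoglobin (2.15, SE 0.53, adjusted p = 0.0400). Macrophages express Apoe as well, and Vcam1 is also in the macrophage list. Without juvenile replicate 1, juvenile replicate 5 or adult replicate 1 the count was 3, and in the 7 Xist-rich libraries it was 0. Tmem176b had the most counts of this list and was not called (log2 fold change −0.052, SE 0.19). The 21 tested genes had 13 positive and 8 negative log2 fold changes, and 9 had an unadjusted p under 0.05. Among these 9, Bmp4 and Kng1 had negative log2 fold changes (−1.10 and −3.98) and the others positive ones. Neither Bmp4 nor Kng1 was called, and both are named after their values were seen.

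Of 13 further stromal transcription factors, 10 were tested and edgeR called 0, with 1 at an unadjusted p under 0.05 and 0 called by DESeq2 and by voom. That gene, Prrx1, also had the most counts, at 130.0 ± 27.6 CPM in juvenile (SD, n = 5) and 92.1 ± 16.2 CPM in adult libraries (SD, n = 4), with a log2 fold change of −0.50 (SE 0.21, edgeR adjusted p = 0.232). Twist2 was at 0 in all libraries. The median of this list was 0.010.

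Mature adipocytes were looked for with 19 genes. Plin1, which coats the fat droplet, and Lep, which encodes leptin itself, had no count in any library, so RNA for leptin was not detectable at this depth. Of the 10 genes tested, 1 was called, with a median of −0.058. Fabp4, a fatty acid binding protein of adipocytes and capillary endothelium, was higher in adult libraries (log2 fold change 1.45, SE 0.37, edgeR adjusted p = 0.0447). Its call was lost without juvenile replicate 1, 3, 4 or 5 and without adult replicate 1, 3 or 4, where the list held 0 called genes. Car3, the carbonic anhydrase with the most counts of the list, was not called (log2 fold change −0.10, SE 0.30). The sum of the list was 511, 894, 573, 592 and 663 CPM in juvenile and 972, 496, 786 and 566 CPM in adult libraries. Car3 alone gave 351, 668, 454, 459 and 475 CPM of these sums in juvenile and 735, 278, 520 and 260 CPM in adult libraries. The sums overlapped between the ages.

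Of 12 partners of lipoprotein lipase, 9 were tested, with a median of 0.56. Fabp4, counted above, was higher and Fabp5, a fatty acid binding protein of many cell types, was lower in adult libraries (log2 fold change −1.78, SE 0.43, edgeR adjusted p = 0.0368). The list held 0 called genes without juvenile replicate 1, 3 or 4 or without adult replicate 1, 3 or 4, and 1 without juvenile replicate 2 or 5. Vldlr had the most counts and was not called (log2 fold change −0.20, SE 0.21), and Angptl8 was at 0 in all libraries. Of 14 further genes of leptin and adiponectin signalling, 13 were tested and edgeR called 0, with 1 at an unadjusted p under 0.05 and 0 called by DESeq2 and by voom. Ptpn1, the phosphatase that ends leptin signalling, had the most counts, at 165 ± 36.0 CPM in juvenile (SD, n = 5) and 163 ± 26.5 CPM in adult libraries (SD, n = 4). The receptor Lepr was thus the only gene of that pathway list called by edgeR, and its median without Lepr and Adipoq was 0.24.

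The genes whose pattern over the 9 libraries was nearest to that of Cxcl12 were found among all tested genes by the mean absolute difference of log2 CPM, each gene centred on its own mean. The nearest 8 were Apoe, Cd74, Ltc4s, Hmgb2, Pawr, Mir142hg, H2-Aa and Stmn1, with differences from 0.29 to 0.47, against a median of 1.38 over all genes. Apoe, at 0.29, had 114, 117, 146, 167 and 75.0 CPM in juvenile and 1047, 213, 735 and 1027 CPM in adult libraries. Like Cxcl12, it was lowest among adult libraries in adult replicate 2 and did not overlap between the ages. A choice by this measure favours such likeness. Among the other 8 tested genes of the 10, Adipoq stood nearest to Cxcl12, in place 304 of 13417, followed by Kitl in place 541 and Lpl in place 576, and Lepr stood in place 12459. By the same measure, applied after Lepr had been seen to differ, the genes nearest to Lepr were Arhgef10, Uaca, P4ha2, Hes6, Qsox1, Meis1, Spats2 and Emid1, and the nearest of the 10 was Foxc1, in place 3225.

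The promoters of the 2 called genes are shown because these genes moved in opposite directions, and a Pparg promoter is shown as the one among the 10 genes with more than 1 match to the letters of C/EBP factors, the family of Cebpa. RefSeq windows of 300 bases, from 250 bases before to 50 after a transcript start, were found for 8 of the 10 genes, with 11 windows in all, on build GRCm38.p6. Lpl and Il7 had no entry. All 4 windows printed are on the plus strand: Cxcl12 at chr6:117168285-117168584, the first Lepr start at chr4:101717157-101717456, the second Lepr start at chr4:101717656-101717955, and the third Pparg start at chr6:115421816-115422115. Capitals mark a match to TTGCNNAA on either strand.
Cxcl12: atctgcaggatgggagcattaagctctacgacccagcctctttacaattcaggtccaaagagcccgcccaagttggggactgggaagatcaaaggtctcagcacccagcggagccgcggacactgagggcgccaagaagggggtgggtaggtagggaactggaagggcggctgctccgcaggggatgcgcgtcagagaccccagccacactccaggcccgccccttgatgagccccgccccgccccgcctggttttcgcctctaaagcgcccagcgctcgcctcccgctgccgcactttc
Lepr, first start: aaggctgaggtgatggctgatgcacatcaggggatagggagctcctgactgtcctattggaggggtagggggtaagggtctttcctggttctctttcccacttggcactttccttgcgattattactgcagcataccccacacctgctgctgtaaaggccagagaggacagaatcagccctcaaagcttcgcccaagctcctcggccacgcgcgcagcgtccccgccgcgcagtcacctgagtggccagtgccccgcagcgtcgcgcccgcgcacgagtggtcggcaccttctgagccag
Lepr, second start: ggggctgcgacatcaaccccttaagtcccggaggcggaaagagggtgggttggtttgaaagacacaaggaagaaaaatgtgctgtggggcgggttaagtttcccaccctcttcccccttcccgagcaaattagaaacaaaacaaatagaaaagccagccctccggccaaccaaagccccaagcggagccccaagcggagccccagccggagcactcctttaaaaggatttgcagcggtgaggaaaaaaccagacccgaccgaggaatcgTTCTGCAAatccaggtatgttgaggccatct
Pparg, the third start: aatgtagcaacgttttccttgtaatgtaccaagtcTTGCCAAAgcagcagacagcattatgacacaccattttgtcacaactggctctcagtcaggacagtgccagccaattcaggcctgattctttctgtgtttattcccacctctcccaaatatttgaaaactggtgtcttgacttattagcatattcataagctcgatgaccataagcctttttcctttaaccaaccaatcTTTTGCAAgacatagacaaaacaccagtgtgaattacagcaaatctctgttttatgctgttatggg

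The letters TTGCNNAA were held by 10.8% of the 32851 promoter windows. Of the 11 windows of the 10 genes, 2 held them, the second Lepr start, where the match lies after the start on the minus strand, and the third Pparg start, with 1 match on each strand. The other 4 motifs were searched on both strands. The EBF core CCCNNGGG, in 13.7% of all windows, matched in Ebf3 alone among the 10 genes. The nuclear receptor half-site AGGTCA, in 16.3%, matched at the first and second Pparg starts, and the TATA box TATAAA, in 13.6%, at Kitl, Cebpa and the second Pparg start. The FOX core TGTTTAC, in 3.65% of all windows, had no match among these 11 windows. The windows of Cxcl12, Adipoq, Foxc1 and the first Lepr start held none of the 5 motifs. These matches describe letters within the windows and say nothing of binding.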

How the data were processed

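Laser-microdissected OF capillaries gave 9 libraries, 5 juvenile and 4 adult, which the study describes as from different mice. The authors mapped reads to mm10 (GRCm38) with TopHat2 and Bowtie2 and deposited whole-number counts per gene, made with featureCounts according to the submitters' processing notes. Versions, strand setting and annotation release are not given in the sources used here. Symbols, positions and exon lengths came from GENCODE M21 of GRCm38, which named 96.2% of the gene identifiers.

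The age comparison used edgeR 4.0.16 in R 4.3.3 (filterByExpr, TMM, quasi-likelihood F test without covariates, Benjamini-Hochberg adjustment over all genes tested, threshold 0.05). Log2 CPM used a prior count of 2. DESeq2 1.42.0, limma 3.58.1 (voom), other scalings and filters, a replicate block, the Xist-rich libraries and leaving out each library were alternatives. The code was tested on simulated counts of well-counted genes. There edgeR called 19 of 100 genes changed 2-fold and 70 of 100 changed 4-fold, so a gene that was not called may still differ. No 2 of the 36 library pairs were copies. Promoters came from RefSeq (GRCm38.p6). Python 3.11.15 and matplotlib 3.10.9 drew the plots.

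Named were the 10 genes, in each list the gene with the most counts, up to 4 called genes per direction by smallest adjusted p and genes at 0, the 8 genes nearest to Cxcl12, Xist and Ddx3y. A gene that this rule names is not reported here. Hp, Bmp4, Kng1, Cxcr4, Tyro3, Mertk, Axl, Il2rg, Ly6a, Lum and the genes nearest to Lepr were named after their values were seen. The 10 genes and the lists were chosen with earlier results of these data known.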

Additional observations from a re-analysis of the deposited data

Results flagged for a closer look

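A library that lay far from the others of its age, relative to the range of that age, was found in 9 of 60 comparisons of the 10 genes and the summed lists. For a single comparison chance alone gives about 1 in 20. The lists share genes, so the comparisons are not independent and the 9 are not read as an excess over chance. Among the 10 genes, Pparg was at 5.07 CPM in juvenile replicate 4 against 0.725 to 1.70 CPM in the other juvenile libraries. Il7 was at 0.363 CPM in juvenile replicate 1, which is 2 counts and below the floor, against 0 in the others. With the others at 0, any count in this library met the rule. The sum over the 10 genes was 317 CPM in juvenile replicate 4 against 458 to 479 CPM in the other juvenile libraries.

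Of the summed lists, the lipoprotein lipase partners stood at 954 CPM in juvenile replicate 2 against 654 to 739 CPM. The osteoblast genes stood at 63526 CPM in adult replicate 4 against 91549 to 94004 CPM. The chondrocyte genes stood at 985 CPM in juvenile replicate 3 against 363 to 532 CPM, and at 4646 CPM in adult replicate 2 against 596 to 1030.5 CPM. The erythroid genes stood at 2555 CPM in juvenile replicate 1 against 419 to 1013 CPM, and the megakaryocyte genes at 4247 CPM in adult replicate 4 against 62.4 to 605 CPM. What set these libraries apart was not tested.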

How the results depend on the processing

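The log2 fold changes of the 10 genes kept their direction and their side of the threshold in 150 of 159 alternative values. Cxcl12 kept its direction in all of them, with log2 fold changes from 2.37 to 2.91 when single libraries were left out, and Lepr was called in all, from −1.99 to −1.63 when single libraries were left out. In the 7 Xist-rich libraries, a fit with fewer samples, 73 genes and 1 of the 10 were called, and the log2 fold change was 2.33 for Cxcl12 (adjusted p = 0.0632) and −0.048 for Cebpa. That fit called 0 niche ligands, 0 other CXCL12-abundant cell genes, 0 mature adipocyte genes and 0 lipoprotein lipase partners. DESeq2 called 1492 genes in all, 4 niche receptors and 2 mature adipocyte genes, and it called Il7 with a log2 fold change of 6.24, against 5.95 in the unfiltered edgeR fit. With voom, Pparg stood at −0.023 and 1 lipoprotein lipase partner was called. The cause of these changes was not tested.

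Equal replicate numbers did not pair the libraries, since they belong to different mice and the correlations of same-numbered deviations were 0.027, −0.032, 0.019 and 0.030. Of the 4 adult libraries, 2 correlated best with the juvenile library of their own number. With the number as a replicate block, 89 genes and 1 of the 10 were called, and the log2 fold change of Cxcl12 was 2.36 (adjusted p = 0.0555). This fit called 0 niche ligands, 1 other CXCL12-abundant cell gene, 0 mature adipocyte genes and 1 lipoprotein lipase partner.

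When each library was left out in turn, 262 to 651 genes were called, and the log2 fold change ranged from −0.087 to 0.38 for Cebpa and from −0.45 to 0.013 for Foxc1. The called niche receptors ranged from 1 to 2, the other CXCL12-abundant cell genes from 3 to 5, the mature adipocyte genes from 0 to 1 and the lipoprotein lipase partners from 0 to 2. Scaled by the longest transcript, levels per kilobase were 17.6 for Cxcl12 and 25.7 for Lepr in juvenile libraries, 19.6 and 31.7 for Lpl and 0.787 and 1.77 for Ebf3 in juvenile and adult libraries, since shorter lengths divide the same counts. Within the 250 bases before the start, 1 promoter window of the 10 genes held TTGCNNAA. Adipoq, Cebpa, Pparg, Ebf3 and Il7 had at most 131 counts in any library, which limits what could be detected for them.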
